A study of Mus musculus with 37 samples.

Results

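Expression of 10 genes of the canonical Wnt pathway was followed in jejunal organoids and in the Lgr5-EGFP+ cells sorted from them, with and without vasoactive intestinal peptide (VIP) and with and without irradiation. The genes were chosen by symbol as receptors, feedback regulators and effectors of the pathway: the ligand Wnt3, the receptors Fzd5, Fzd7 and Lrp6, the R-spondin receptor Lgr4, the ubiquitin ligases Rnf43 and Znrf3, and the intracellular components Ctnnb1, Axin2 and Tcf7l2. All 10 had a row in each of the 3 count tables, which together list 31533 gene symbols.

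In the small intestine, Wnt ligands from Paneth cells and from the stroma keep the stem cells at the crypt base in division. A Wnt ligand joins a Frizzled receptor and the co-receptor Lrp6, the destruction complex built on Axin then no longer degrades β-catenin (the product of Ctnnb1), and β-catenin enters the nucleus and switches on target genes together with TCF factors such as Tcf7l2. Rnf43 and Znrf3 remove Frizzled receptors from the cell surface, R-spondins acting through Lgr4 and Lgr5 block this removal, and Axin2 and Rnf43 are themselves transcribed in response to the pathway, so that their mRNA is widely used as a readout of it.

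RNA was sequenced in 3 separate experiments, in which VIP, a neuropeptide of the enteric nervous system, was given at 100 nM. Whole organoids from C57Bl/6 mice were left untreated (3 mice) or treated for 72 h (4 mice). Lgr5-EGFP+ cells were sorted from organoids of Lgr5-EGFP-IRES-CreERT2 reporter mice, in which EGFP is expressed from the Lgr5 locus, again without VIP or after 72 h with it (4 mice per group). Each organoid line came from 1 mouse. In the irradiation cohort, organoids of 4 further reporter mice were irradiated with 6 Gy or not, each without VIP or with VIP for 48 h, and Lgr5-EGFP+ cells were sorted from all 4 groups. The mice were adults of 6 to 12 weeks of either sex, and the untreated and treated cultures of a mouse were compared with each other. All groups grew in medium with EGF, Noggin and R-spondin-1 (500 ng/mL) and with no added Wnt ligand, so that the ligand of Lgr4 was supplied from outside in all of them.

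Transcripts were captured at their 3′ ends and counted by unique molecular identifiers (UMIs), which count amplified copies of 1 molecule once. Libraries held 3722716 to 6330404 UMIs per sample in whole organoids, 575242 to 1104126 in the first sorted experiment and 1075715 to 1876729 in the irradiation cohort. Levels are given as CPM, the UMI count of a gene relative to the TMM-scaled total of its library, for mice 1 to 4 in order. Mouse numbers belong to each experiment separately, and levels were tested within an experiment, since each table was scaled on its own. The enterocyte markers summed to 10948 to 14498 CPM in whole organoids and to 653 to 2908 CPM in sorted cells. Of the stem cell markers, Olfm4 was at 1644 to 5760 CPM in sorted cells and 1138 to 3709 CPM in whole organoids. Lgr5 itself was at 12.5 to 53.8 CPM in sorted cells and 45.0 to 115 CPM in whole organoids, so that its own transcript was not higher in the sorted samples. Sorted cells and whole organoids also differed in genotype at the Lgr5 locus and in sequencing run, so these Lgr5 levels do not measure the sort. The sorted samples also held Paneth cell markers, which summed to 4023 to 29439 CPM there. Endothelial and mesenchymal markers stayed at or below 3.59 CPM in sum in all samples. In bulk samples, fewer cells of a type and less RNA per cell cannot be told apart.

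The β-catenin transcript was the only member called in the 6 comparisons of VIP or irradiation. Ctnnb1 rose in irradiated Lgr5-EGFP+ cells under VIP, by 1.58-fold. This was 1 of 9 members tested, against 7.78% of all genes, so that the count lay near that share. Without VIP, 0 of 9 passed after irradiation, against 4.46% of all genes, with Ctnnb1 just above the threshold. Axin2, the feedback target read as pathway output, differed between irradiated and non-irradiated cells by less than its error. VIP alone changed no member past the threshold in any experiment, although Ctnnb1 in whole organoids lay close to it and passed under some alternatives. Tests were made with edgeR's quasi-likelihood test over all genes, with the mouse as a block and a Benjamini-Hochberg adjusted p of 0.05 or less as the threshold.

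**Figure D1:**
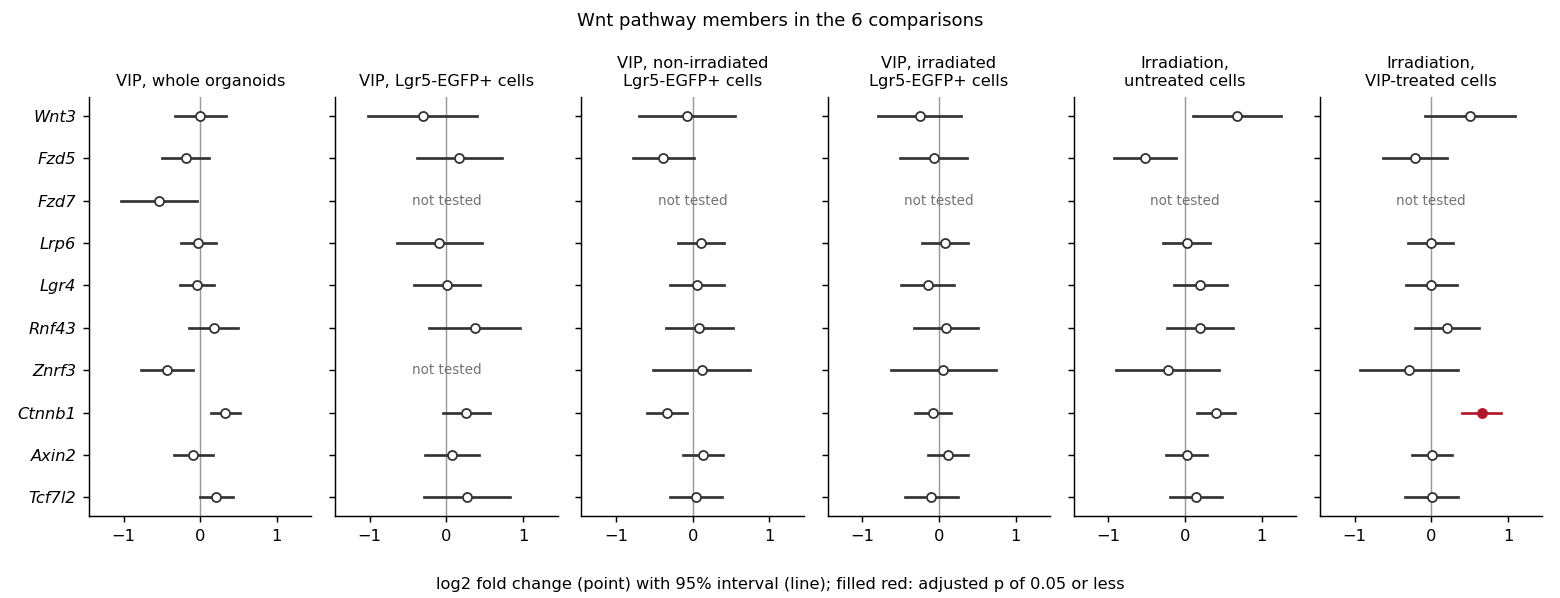
Log2 fold change (x axis) of each of the 10 genes in the 6 comparisons of VIP or irradiation, with the 95% interval as a line. Ctnnb1 after irradiation under VIP (log2 fold change 0.66) is the filled point, the intervals of Axin2 and Lrp6 span 0 in all 6 panels, and Fzd7 and Znrf3 had too few counts for the test in the panels marked so.

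The first question was which of the genes responded to irradiation. In untreated cells, 0 of the 9 members tested passed the threshold in edgeR, against 4.46% of all 9976 genes. DESeq2 also called 0. In edgeR, 3 members (Ctnnb1, Wnt3 and Fzd5) had an unadjusted p under 0.05, as did 1668 of all genes. In VIP-treated cells 1 of 9 passed, against 7.78% of all genes, and the same member was called by DESeq2. A count of 0 or 1 in 9 lay near the share of all genes in both contrasts. Over the 9 members the median log2 fold change was 0.14 without VIP and 0.00 with it, and the median over all genes was within 0.01 of 0 in both. The self-test on simulated counts recovered 44.2% of genes changed by 1.5-fold and 77.2% of those changed by 2-fold in the comparison of irradiated with non-irradiated untreated cells, so that a change of 1.5-fold in one member could be missed.

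Ctnnb1 encodes β-catenin, the transducer of the pathway, which also joins cadherins at cell contacts, and was counted with 55 to 133 UMIs per sample in the cohort. In VIP-treated cells it stood at 49.1, 44.7, 48.8 and 33.0 CPM without irradiation and at 69.1, 74.7, 64.7 and 67.3 CPM with it. All 4 irradiated samples were above all 4 non-irradiated ones, and each mouse rose. The fold change was 1.58 (95% interval 1.32 to 1.88, log2 fold change 0.66, SE 0.12, adjusted p = 0.000963). This adjusted p and those that follow are edgeR's, by the Benjamini-Hochberg method. In untreated cells it stood at 63.1, 57.0, 48.7 and 51.3 CPM without irradiation and at 74.3, 72.1, 67.7 and 77.2 CPM with it. Here too the irradiated samples lay above all non-irradiated ones and each mouse was higher, with a smaller difference that ended just above the threshold (log2 fold change 0.40, SE 0.12, adjusted p = 0.0513). This value crossed the threshold when mouse 1 was left out (adjusted p = 0.0420) or when genes under a mean of 10 counts were dropped first (adjusted p = 0.0454).

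The order of the group means of Ctnnb1 was irradiated untreated, irradiated with VIP, non-irradiated untreated, and non-irradiated with VIP. The 2 irradiated groups did not differ beyond their spread (log2 fold change −0.07, SE 0.11, adjusted p = 0.982, VIP against untreated), and neither did the non-irradiated ones past the threshold, although 3 of 4 mice were lower with VIP (log2 fold change −0.33, SE 0.13, adjusted p = 0.264, unadjusted p = 0.0157). The irradiation effect under VIP was larger than that without VIP by 0.25 on the log2 scale (SE 0.17, adjusted p = 0.889). The response of Ctnnb1 was therefore not shown to differ between untreated and VIP-treated cells. Averaged over both, an estimate chosen after the data were examined, the effect was 0.53 (SE 0.09, adjusted p = 8.64e-05). Of all 9976 genes, 13.8% passed in this average, and 2 of the 9 members did, Ctnnb1 and Wnt3.

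**Figure D2:**
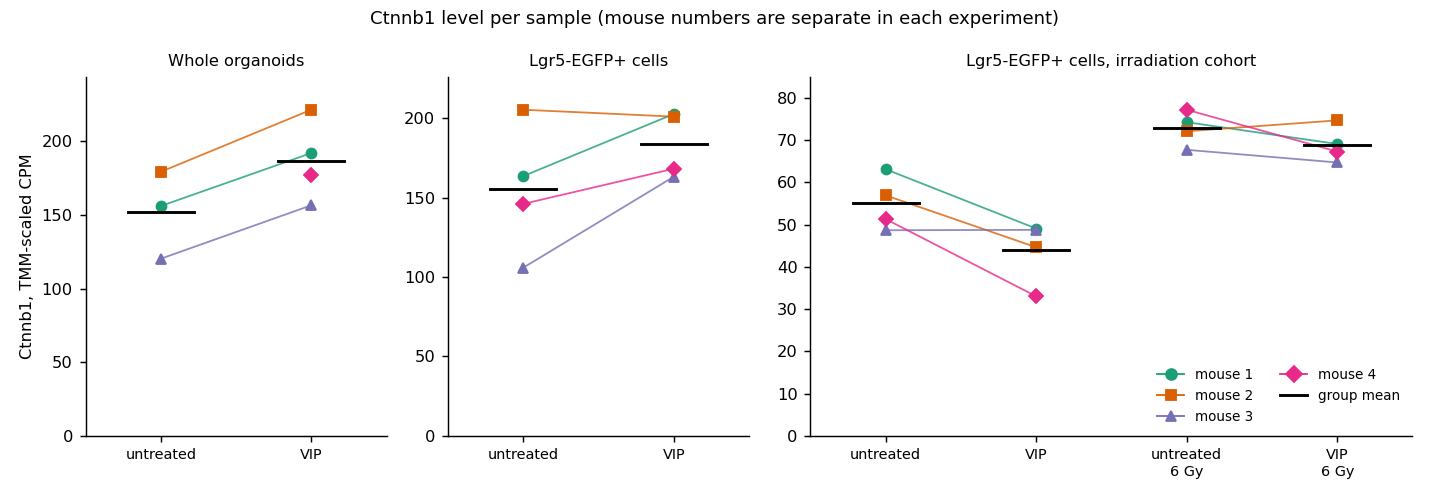
Ctnnb1 in CPM (y axis, from 0, with its own scale in each panel) for each sample of the 3 experiments, with lines joining the samples of a mouse and bars for group means. In the irradiation cohort the irradiated samples sit between 64.7 and 77.2 CPM and the non-irradiated ones between 33.0 and 63.1 CPM.

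Wnt3, the ligand that Paneth cells supply to neighbouring stem cells, was counted with only 9 to 27 UMIs per sample in the cohort. It was at 12.4, 8.05, 5.09 and 8.55 CPM in non-irradiated untreated cells and at 14.0, 9.76, 21.9 and 10.1 CPM after irradiation. Each mouse was higher after irradiation, most of all mouse 3, which had the lowest level without irradiation and the highest with it, and the groups overlapped. With VIP it was at 9.82, 6.70, 7.70 and 7.81 CPM without irradiation and at 14.2, 8.65, 12.4 and 10.2 CPM with it, again higher in 4 of 4 mice with overlapping groups. Neither contrast passed the threshold (log2 fold change 0.67, SE 0.28, adjusted p = 0.199, and log2 fold change 0.50, SE 0.29, adjusted p = 0.323). The average of both did by a small margin (log2 fold change 0.59, SE 0.20, adjusted p = 0.0496), and this call was lost in edgeR's test without any 1 of the 4 mice (without mouse 3, log2 fold change 0.34, adjusted p = 0.342), without the mouse block, with all genes of any count and with DESeq2. Paneth cell markers rose with irradiation in the same libraries. Their sum was 10521 to 15471 CPM in non-irradiated and 15325 to 29439 CPM in irradiated untreated samples, and 9005 to 10217 against 15381 to 17748 CPM with VIP. All 9 tested of the 10 listed were called higher in both contrasts, the most abundant being the defensins Defa24 and Defa17, whose near-identical relatives can share reads. Their part in the levels of Wnt3 and Ctnnb1 was not tested.

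Among the receptors, Fzd5, the Frizzled that Paneth cell maturation depends on, gave lower values after irradiation. It stood at 25.4, 18.0, 20.9 and 21.1 CPM without irradiation and at 14.6, 15.2, 14.3 and 14.7 CPM with it in untreated cells. Every irradiated sample was below every non-irradiated one, yet the adjusted p did not reach the threshold (log2 fold change −0.53, SE 0.20, adjusted p = 0.148). With VIP the values were 15.1, 18.6, 18.6 and 13.2 CPM without and 13.2, 13.4, 16.5 and 13.4 CPM with irradiation, and these groups overlapped (log2 fold change −0.21, SE 0.20, adjusted p = 0.611). Fzd7, the Frizzled of the Lgr5+ stem cells, had 2 to 13 UMIs per sample in the cohort and fell below edgeR's filter on low counts, so that no test was made. Lrp6, the shared co-receptor, ranged from 30.3 to 51.4 CPM over all 16 samples. Its irradiation effect had a fold interval of 0.823 to 1.25 without VIP and 0.813 to 1.22 with it.

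In the R-spondin arm, Lgr4, which binds the R-spondin of the medium, was at 34.7, 29.7, 26.6 and 25.7 CPM without and 33.9, 34.2, 32.4 and 34.9 CPM with irradiation in untreated cells, higher in 3 of 4 mice (log2 fold change 0.20, SE 0.17, adjusted p = 0.628). With VIP its fold change was 1.0 (95% interval 0.793 to 1.26). Here mouse 3 was at 30.8 CPM without and 18.2 CPM with irradiation, while the other mice were higher with it. Rnf43, one of the ligases that clear Frizzled receptors, was higher after irradiation in 3 of 4 mice in both contrasts, by 0.19 and 0.20 on the log2 scale, within the spread between mice (SE 0.21 and 0.20). Its relative Znrf3 was lower in 3 of 4 mice in both, by wide margins of error at 5 to 19 UMIs per sample (log2 fold change −0.23, SE 0.33, adjusted p = 0.794, and log2 fold change −0.29, SE 0.31, adjusted p = 0.655).

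Axin2, scaffold of the destruction complex and a direct target of the pathway, differed by less than its error. It stood at 91.0, 77.4, 58.9 and 74.4 CPM in non-irradiated and 72.5, 90.6, 65.8 and 75.4 CPM in irradiated untreated cells. With VIP it was at 95.2, 87.8, 79.6 and 67.9 CPM and 69.1, 92.8, 75.9 and 93.5 CPM. The groups overlapped, and under VIP mice 1 and 3 were lower and mice 2 and 4 higher after irradiation. Averaged over both contrasts, the fold change was 1.01, with a 95% interval of 0.889 to 1.15, so that the data leave room for a fall to 0.889-fold or a rise to 1.15-fold. For Ctnnb1 the same interval was 1.28 to 1.63. Tcf7l2, the TCF factor of the intestine, ranged from 23.8 to 38.4 CPM, with fold intervals of 0.871 to 1.40 without VIP and 0.792 to 1.27 with it.

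**Figure D3:**
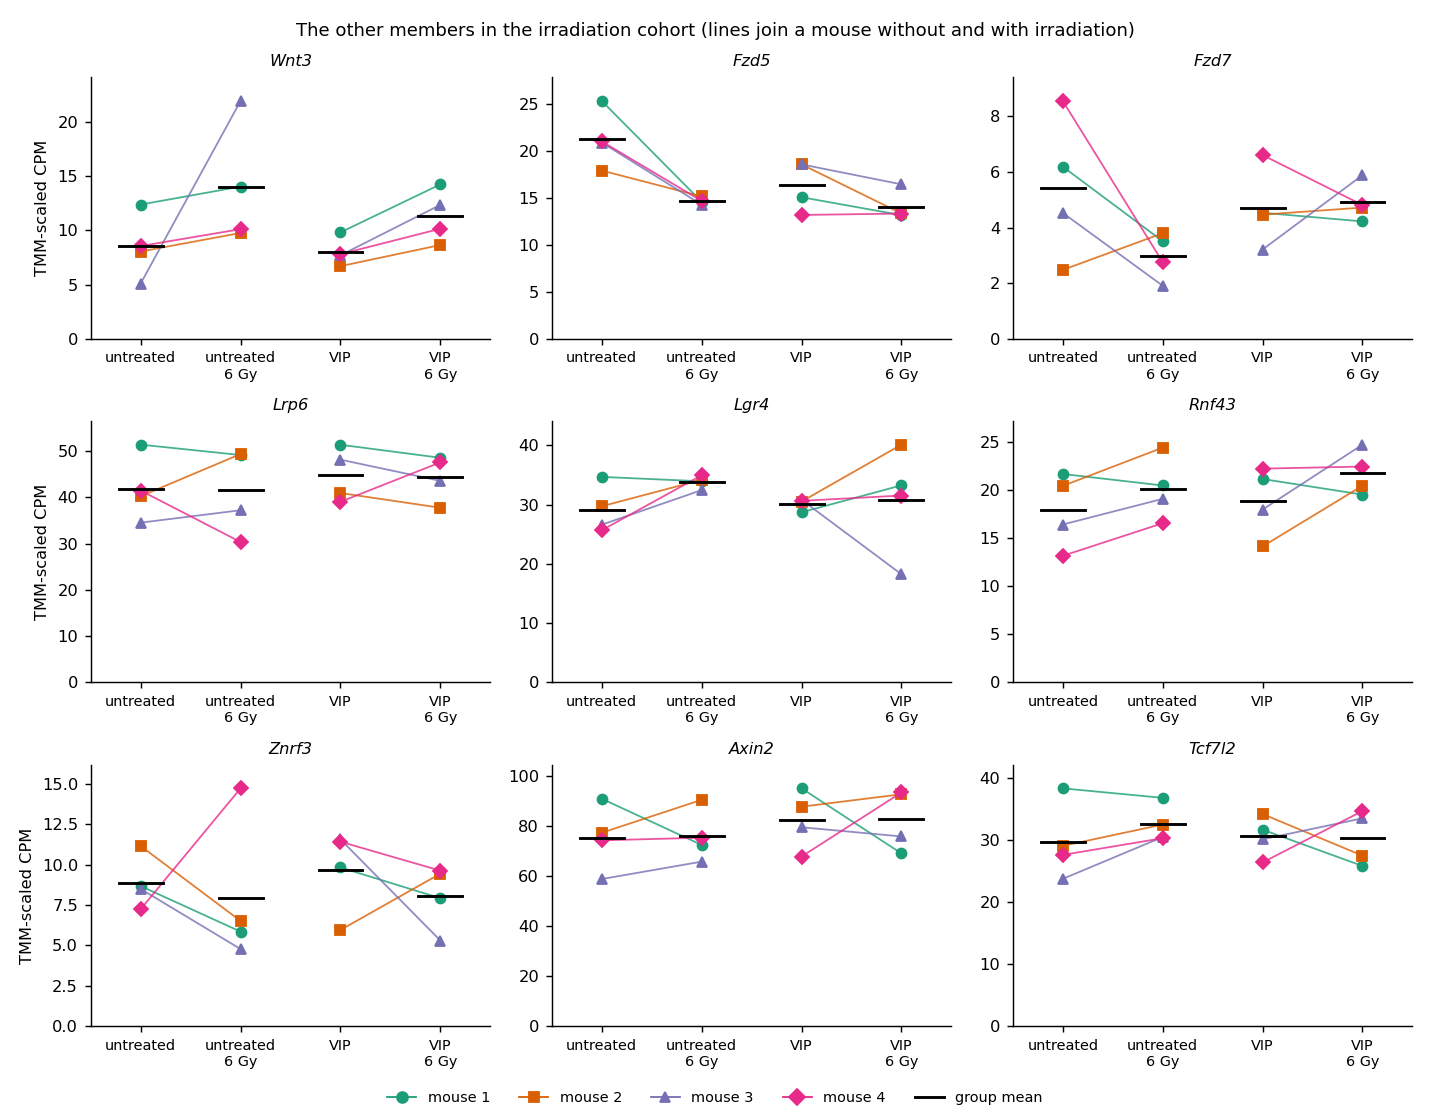
CPM (y axis, from 0) of the 9 members other than Ctnnb1 in the 4 groups of the irradiation cohort, with lines joining a mouse without and with 6 Gy and bars for group means. Wnt3 is higher and Fzd5 lower after irradiation in each untreated mouse, Axin2 stays between 58.9 and 95.2 CPM in all 16 samples, and Fzd7 and Znrf3 lie at levels where a few UMIs set the value.

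The interaction of VIP and irradiation was tested for the same 9 members. None passed in edgeR or in DESeq2, 0 of them had an unadjusted p under 0.05, and 0% of all genes passed (634 genes had an unadjusted p under 0.05, and DESeq2 called 0). The point estimates ran from −0.20 for Lgr4 to 0.32 for Fzd5, with SEs of 0.17 for Ctnnb1 to 0.45 for Znrf3. The self-test recovered 62.8% of 2-fold and 21% of 1.5-fold differences in this contrast.

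Promoter sequence is shown for the 2 members that rose in the average over both irradiation contrasts, Ctnnb1 and Wnt3, and for Axin2, the target gene, which did not pass. The sequences are RefSeq's, of build GRCm38.p6, and cover the 250 bases before a start annotated in RefSeq, on the plus strand. They lie at chr9:120933150-120933399 for Ctnnb1 (the first of its 2 windows), at chr11:103773925-103774174 for Wnt3 and at chr11:108920099-108920348 for Axin2. Capitals mark the GC box, GGGCGG on either strand.
Ctnnb1: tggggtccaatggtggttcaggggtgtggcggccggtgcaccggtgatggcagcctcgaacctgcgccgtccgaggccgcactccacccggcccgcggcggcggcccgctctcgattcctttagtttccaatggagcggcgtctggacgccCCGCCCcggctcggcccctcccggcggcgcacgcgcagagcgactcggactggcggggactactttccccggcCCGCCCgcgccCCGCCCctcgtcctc
Wnt3: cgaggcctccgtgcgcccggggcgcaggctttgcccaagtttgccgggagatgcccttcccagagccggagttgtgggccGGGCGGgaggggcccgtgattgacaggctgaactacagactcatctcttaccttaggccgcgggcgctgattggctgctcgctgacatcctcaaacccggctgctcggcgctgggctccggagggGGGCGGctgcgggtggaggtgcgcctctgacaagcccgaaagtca
Axin2: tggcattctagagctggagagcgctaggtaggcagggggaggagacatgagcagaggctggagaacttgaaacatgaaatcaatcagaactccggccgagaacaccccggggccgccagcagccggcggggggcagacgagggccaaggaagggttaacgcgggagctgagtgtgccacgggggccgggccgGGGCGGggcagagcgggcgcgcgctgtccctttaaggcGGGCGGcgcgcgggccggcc
The 3 windows held 3 GC boxes for Ctnnb1, 2 for Wnt3 and 2 for Axin2, and their share of G and C was 74.8%, 68.0% and 69.2%, against a median of 52.4% over all 32851 promoter windows. The 8 members in the table (all but Znrf3 and Lrp6) had 11 windows. Of these, 7 held a GC box, which 32.7% of all windows did. The core of the TCF motif, searched as CTTTGAT or CTTTGAA on both strands, was found in 0 of the 11 and in 7.48% of all windows. These letters are absent from this stretch before the RefSeq start, which says nothing on binding elsewhere in the genes. The genes lie at chr9:120929216-120960507 (Ctnnb1), chr11:103774150-103817957 (Wnt3) and chr11:108920349-108950783 (Axin2), all on the plus strand, in the GENCODE M21 annotation of GRCm38. By these positions the Ctnnb1 window lies inside the gene and the Wnt3 window runs past the gene's start. The Axin2 window ends just before the gene.

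The second question was whether VIP acts on the pathway's genes without injury. In whole organoids, 0 of 10 members passed the threshold in edgeR and 0 in DESeq2, against 4.82% of all 12727 genes. In edgeR, 3 members had an unadjusted p under 0.05, as did 2090 of all genes. Ctnnb1 was at 156, 179 and 120.3 CPM in the untreated mice 1 to 3 and at 192, 222, 157 and 177 CPM in the VIP-treated mice 1 to 4. It was higher with VIP in 3 of 3 mice, while the ranges of the groups overlapped (log2 fold change 0.33, SE 0.09, adjusted p = 0.0532). Of its partners, Tcf7l2 was also higher in 3 of 3 mice (log2 fold change 0.21, SE 0.10, adjusted p = 0.324), from 147, 121 and 94.9 CPM to 148, 161, 110.0 and 131 CPM. In mouse 1 its levels were nearly equal, and in mouse 3 its rise rested on 1 library (below). Mouse 4 had no untreated culture and adds nothing to the fold changes. In the same libraries 7 of 8 goblet cell markers were called higher with VIP. So were 7 of 13 tested immediate early and stress genes, a list made for dissociated cells, although these organoids were not sorted. The part of both lists in these levels was not tested.

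Znrf3 lay on the other side. It was at 18.8, 20.0 and 21.1 CPM in untreated and 14.3, 12.7, 17.8 and 13.0 CPM in VIP-treated organoids, lower in 3 of 3 mice and with no overlap of the groups (log2 fold change −0.43, SE 0.16, adjusted p = 0.174). Fzd7 was at 9.12, 12.5 and 6.27 CPM and 5.94, 6.92, 6.41 and 8.99 CPM, lower in mice 1 and 2 and level in mouse 3 (log2 fold change −0.53, SE 0.23, adjusted p = 0.259). Fzd5 was at 47.3, 59.9 and 28.8 CPM without and 37.4, 43.7, 36.4 and 38.0 CPM with VIP. It was lower in mice 1 and 2 and higher in mouse 3 (log2 fold change −0.19, SE 0.14, adjusted p = 0.575). The other ligase, Rnf43, did not share the direction of Znrf3 (log2 fold change 0.17, SE 0.15, adjusted p = 0.637). Axin2 stood at 92.4, 116 and 58.4 CPM without and 88.9, 88.4, 68.9 and 80.2 CPM with VIP, its levels differing more between mice than between treatments (fold interval 0.787 to 1.12). Wnt3, Lrp6 and Lgr4 had fold changes of 1.0, 0.984 and 0.969, each with an interval that spanned 1.

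Several of the whole-organoid values depend on 1 library. Cultures gave a pair of technical libraries each, but the untreated culture of mouse 3 gave 1. In the VIP-treated culture of mouse 3 the pair disagreed: Axin2 was at 42.2 CPM by library size in the first library and at 108.7 CPM in the second, a ratio of 2.57, against at most 1.34 in the 5 other pairs. Tcf7l2 (85.7 and 144.3 CPM), Fzd5 (27.8 and 48.6 CPM), Lrp6 (38.6 and 58.5 CPM) and Lgr4 (63.6 and 96.5 CPM) split in the same way, while Ctnnb1 and Znrf3 differed by 1.13 and 1.17 times. Wnt3 split the other way, at 13.1 and 8.58 CPM, a ratio of 1.53, against 1.55 in VIP-treated mouse 4. The first library was the one near the untreated culture of mouse 3, in which Axin2 was at 55.1 CPM and Tcf7l2 at 89.5 CPM. The higher Tcf7l2 of mouse 3 with VIP thus came from the second library. Without the second library, Ctnnb1 passed the threshold (log2 fold change 0.31, adjusted p = 0.0146), and Axin2 moved to −0.28 (adjusted p = 0.0854). Without mouse 3 altogether, which leaves 2 pairs, 4 members passed: Ctnnb1 was higher (0.30, adjusted p = 0.0132), and Fzd5 (−0.40, adjusted p = 0.00765), Fzd7 (−0.74, adjusted p = 0.0245) and Znrf3 (−0.52, adjusted p = 0.0402) were lower with VIP. The calls over all genes rose as well, from 614 to 1261 without the second library and to 1668 without mouse 3. The direction of these 4 was the same in all 3 versions, but none of them passed with all mice and libraries kept. For Fzd5, mouse 3 was the mouse that was higher with VIP.

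**Figure D4:**
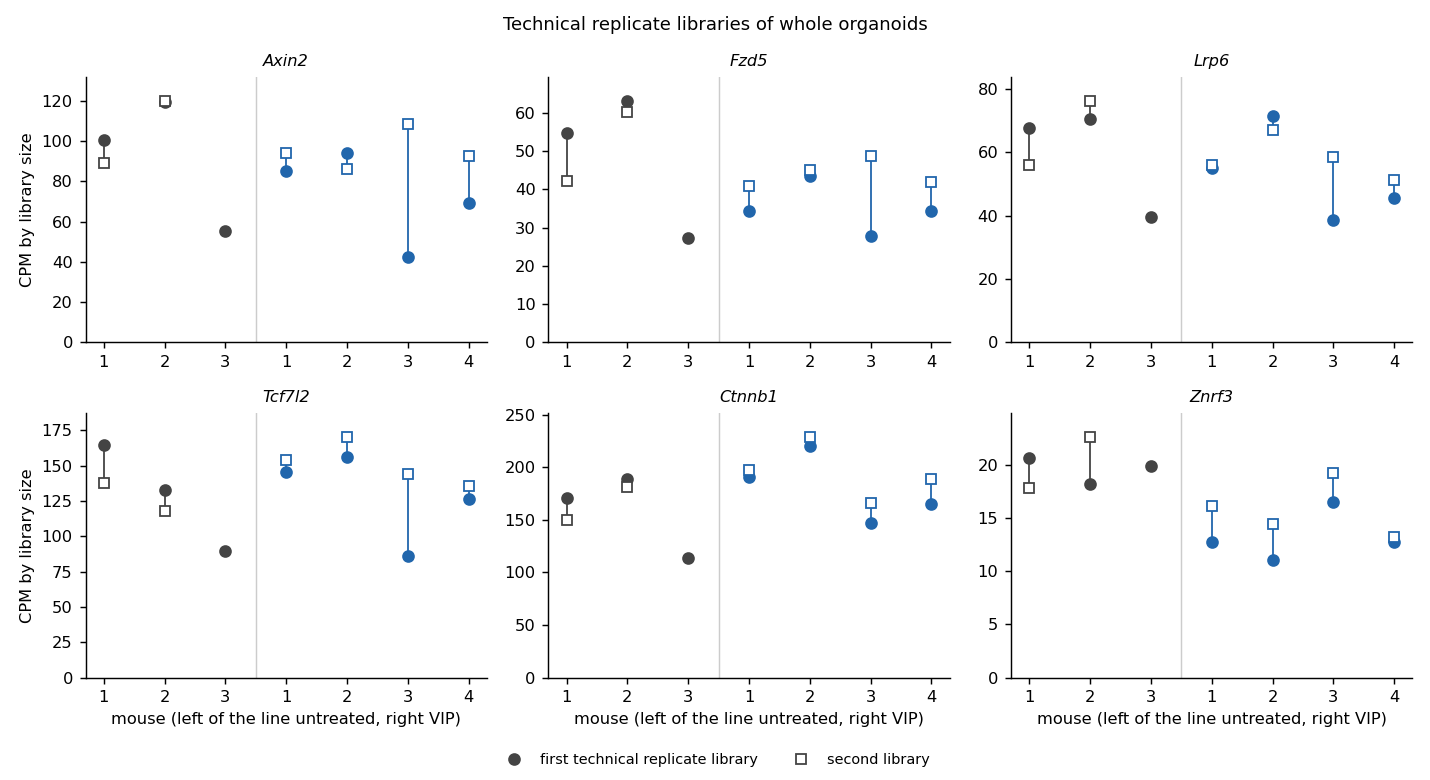
CPM by library size (y axis, from 0) of 6 members in each technical replicate library of whole organoids, by mouse, with lines joining the libraries of a culture. The pair of VIP-treated mouse 3 is far apart for Axin2 (42.2 and 108.7 CPM), Tcf7l2, Fzd5 and Lrp6, and close for Ctnnb1 and Znrf3.

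In sorted Lgr5-EGFP+ cells after 72 h of VIP, 0 of the 8 members tested passed in edgeR and 0 in DESeq2, against 0.0885% of all 6778 genes. At an unadjusted p under 0.05 in edgeR there were 0 members and 373 of all genes. Ctnnb1 was at 163, 205, 106 and 146 CPM without and 203, 201, 163 and 168 CPM with VIP, higher in 3 of 4 mice with overlapping groups (log2 fold change 0.26, SE 0.15, adjusted p = 0.894). Axin2 was at 112, 96.3, 63.5 and 72.2 CPM and 116, 87.9, 76.6 and 80.2 CPM, with a fold interval of 0.822 to 1.35. The largest estimate was that of Rnf43 (log2 fold change 0.37, SE 0.29, adjusted p = 0.941), at 32.1, 23.2, 12.3 and 37.7 CPM without and 35.7, 28.7, 39.1 and 32.4 CPM with VIP. The untreated sample of mouse 3 was the lowest and its VIP-treated sample the highest, and the groups overlapped. At this depth Fzd7 had 3 to 20 and Znrf3 3 to 10 UMIs per sample, and neither was tested. In the self-test for this comparison, 25% of 1.5-fold and 78.5% of 2-fold changes were recovered, so that a change of 1.5-fold would often be missed.

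The VIP effect could also be compared between whole organoids and sorted cells, as the difference of the within-mouse changes in a single fit of both experiments. Of 10 members, 0 passed in edgeR and in DESeq2, against 0.147% of all genes. An unadjusted p under 0.05 in edgeR was found for 0 members and for 636 of all 10186 genes. The differences ran from −0.32 for Wnt3 to 0.69 for Fzd7 (SE 0.44, adjusted p = 0.885), positive where the change with VIP was the more positive in sorted cells. That for Ctnnb1 was −0.07 (SE 0.17). The self-test recovered 0% of 1.5-fold and 49.7% of 2-fold differences in this contrast.

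In the non-irradiated cells of the cohort, 0 of 9 members passed with VIP in edgeR and DESeq2, against 0.742% of all genes, and in irradiated cells 0 of 9 passed in both, against 0.221%. At an unadjusted p under 0.05 there was 1 member in non-irradiated cells (Ctnnb1, the value given above) and 0 in irradiated cells. Over all 9976 genes there were 1237 and 574. Axin2 was slightly higher with VIP in 3 of 4 mice in both settings, by 0.13 and 0.12 on the log2 scale (SE 0.13 and 0.13), within the error. Fzd5 was lower with VIP in 3 of 4 mice in non-irradiated cells (log2 fold change −0.38, SE 0.19, adjusted p = 0.423). The estimate for Ctnnb1 under VIP was positive in the 2 experiments of 72 h and negative in the cohort without irradiation. VIP was given for 48 h there, and neither duration nor experiment can be told apart.

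Some levels also differed between the experiments, which were scaled and sequenced separately. Tcf7l2 ranged from 94.9 to 161 CPM in whole organoids and from 17.6 to 47.6 CPM in sorted cells of both experiments, without overlap. Ctnnb1 ranged from 106 to 205 CPM in the first sorted experiment and from 33.0 to 77.2 CPM in the irradiation cohort, although both held sorted Lgr5-EGFP+ cells. For Axin2 the 3 ranges overlapped, at 58.4 to 116, 63.5 to 116 and 58.9 to 95.2 CPM. For Tcf7l2, sort, genotype, mice and sequencing run cannot be told apart. Both sorted experiments shared the sort and the reporter genotype. For Ctnnb1, mice, sequencing run and treatment schedule (72 h or 48 h of VIP) cannot be told apart.

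The other genes of the pathway were read from lists of ligands, receptors, the R-spondin axis, cytoplasmic relay, nuclear effectors, inhibitors and crypt targets, 99 genes in all besides the members. In whole organoids 55 of them were tested and 1 passed (1.82%, against 4.82% of all genes), Kremen2, a Dickkopf receptor that removes Lrp6 from the surface. It was at 5.07, 4.36 and 2.28 CPM without and 9.96, 11.6, 7.37 and 7.15 CPM with VIP, with no overlap (log2 fold change 1.28, adjusted p = 0.00606 in edgeR's test, lost with DESeq2 at adjusted p = 0.0827 and without the mouse block at 0.161). VIP changed 0 of 31 in sorted cells of the first experiment and 0 of 45 in either setting of the cohort. Among the crypt targets, 13 were tested in the first sorted experiment, the members Axin2 and Rnf43 among them. All 13 had a positive estimate with VIP, with a median log2 fold change of 0.21 against 0.00 over all genes. Of these 13, however, 0 passed and 2 had an unadjusted p under 0.05, which 373 of all 6778 genes had.

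Irradiation changed some of them, in both directions, at shares near those of all genes when the lists were pooled. In untreated cells 3 of 45 passed (6.67%, against 4.46% of all genes). Ccnd1, the G1 cyclin, was higher (log2 fold change 0.45, adjusted p = 0.0150), Smoc2, a secreted protein of the stem cells, was lower (log2 fold change −0.31, adjusted p = 0.0149), and Frat2, an inhibitor of the kinase Gsk3, was lower (log2 fold change −0.82, adjusted p = 7.37e-05). Frat2 was at 74.3, 81.1, 94.0 and 101 CPM without and 49.7, 53.2, 46.8 and 45.1 CPM with irradiation, a clear separation. With VIP, 4 of 45 passed (8.89%, against 7.78% of all genes): Ccnd1 (log2 fold change 0.82, adjusted p = 1.18e-05), Ccnd2 (log2 fold change 0.30, adjusted p = 0.00396) and the adhesion receptor Cd44 (log2 fold change 0.71, adjusted p = 0.00398) were higher, and Smoc2 was lower (log2 fold change −0.31, adjusted p = 0.00780). In the average of both contrasts 7 of 45 passed (15.6%, against 13.8% of all genes), 3 higher and 4 lower. Those higher were Ccnd1, Ccnd2 and Cd44, and those lower were Frat2, Smoc2, the stem cell factor Ascl2 (log2 fold change −0.27, adjusted p = 0.00763) and the Wnt antagonist Sfrp5 (log2 fold change −0.95, adjusted p = 0.00754). Several of these calls were lost when a mouse was left out. In untreated cells that of Ccnd1 was lost without mouse 2, 3 or 4 (adjusted p = 0.204, 0.102 and 0.0510), and that of Smoc2 without mouse 3 or 4 (adjusted p = 0.127 and 0.298) or with only the 2 groups fitted (adjusted p = 0.0542). Under VIP those of Ccnd2 and Smoc2 were lost without mouse 3 (adjusted p = 0.0566 and 0.0901) and that of Cd44 without mouse 4 (adjusted p = 0.0549). In the average, that of Ascl2 was lost without mouse 1 (adjusted p = 0.0506) and that of Sfrp5 without mouse 2 or 3 (adjusted p = 0.0605 and 0.0652). The calls of Frat2 in untreated cells, of Ccnd1 under VIP and of Frat2, Smoc2, Ccnd1, Ccnd2 and Cd44 in the average passed under every alternative run. Genes usually read as Wnt targets thus moved in opposite directions in the average, the cyclins and Cd44 up, Ascl2 and Smoc2 down, with Axin2 and Rnf43 between them. Of the 16 crypt targets tested, members included, 1 was called higher and 1 lower in untreated cells. Under VIP it was 3 and 1, and in the average 3 and 2. These were larger shares than over all genes, in a list chosen with earlier results of these data known.

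**Figure D5:**
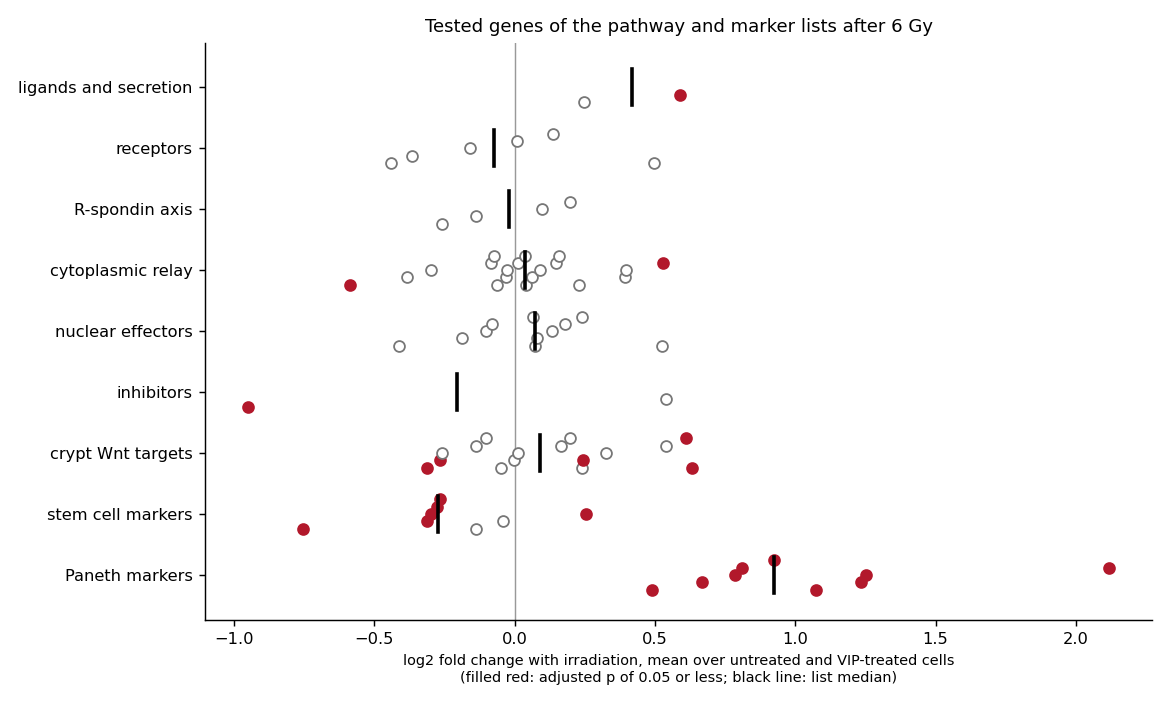
Log2 fold change with irradiation, averaged over untreated and VIP-treated cells (x axis), for each tested gene of the pathway lists and of the stem cell and Paneth cell markers, with members included; filled points passed the threshold and black lines are list medians. The medians of the pathway lists with more than 2 tested genes lie within 0.1 of 0, those of the stem cell markers at −0.27 and of the Paneth markers at 0.92.

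Of the 8 stem cell markers, which include Smoc2, 2 were called lower after irradiation in untreated and 3 in VIP-treated cells, and 0 were called higher in either. In the average of both, 5 were called lower and 1 higher, Slc12a2 (log2 fold change 0.26, edgeR's adjusted p = 0.0397). All 10 listed p53 response genes were called higher in both contrasts. The goblet cell markers were called higher for 5 and 3 of 8, the enteroendocrine markers for 4 and 7 of 7, and the enterocyte markers for 4 and 0 of 8 tested. The part of these shifts in the levels of the Wnt pathway genes was not tested.

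The 5 genes whose levels over the 16 samples of the cohort were most like those of Axin2, after the mean of each mouse was subtracted from log2 CPM, were Acvr2b, Vhl, Meak7, Prr15 and Gm23193 (Pearson correlation 0.85, 0.83, 0.80, 0.78 and 0.77, the highest among 9975 genes). They were counted at 4.92 to 20.5 CPM on average, and the samples share their libraries and depth, so that these correlations are only a description.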

How the data were processed

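Libraries of polyadenylated RNA carried sample barcodes and UMIs. The authors aligned reads to GRCm38 (GENCODE M25), used the Drop-seq pipeline 1.0 to tabulate UMIs, and deposited these whole-number counts for every gene and library with no normalization. Each column matched a sample. Groups and mouse numbers were taken from the labels. The technical libraries of 1 culture were added up.

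Counts were tested in R 4.3.3 with edgeR 4.0.16 (TMM factors, filterByExpr by group, quasi-likelihood F test, mouse as a block), adjusted by Benjamini-Hochberg over all genes of a comparison, at a threshold of 0.05. The 4 groups of the irradiation cohort shared 1 fit. For correlations, a prior count of 2 was added before taking log2 CPM. As a check of the pairing, deviations from the group means correlated across genes by 0.28 to 0.66 within a mouse in whole organoids, 0.03 to 0.21 in the first sorted experiment and −0.07 to 0.16 in the cohort. The block was kept as in the study's design, since samples with a number came from the same mouse.

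Alternatives were RLE factors, library size only, all genes with any count, a mean of at least 10 counts, DESeq2 1.42.0, no block, each mouse left out, no mitochondrially encoded genes, the first technical library only, without the second library of VIP-treated mouse 3, and only the 2 groups compared. The averaged irradiation effect was added after the data were examined. The members and the gene lists were chosen with earlier results of these data known. Named are all members, the other pathway genes past the threshold and the 5 genes most like Axin2. Marker lists are given as counts or sums, with the 2 most abundant Paneth markers and the stem cell markers Olfm4, Lgr5 and Slc12a2 named. The test was checked on simulated counts with known changes. Intervals and counts cover the spread between these samples and counting error only.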

Additional observations from a re-analysis of the deposited data

Results flagged for a closer look

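Among the members, 2 of the 70 groups of 4 samples held a sample far from the 3 others, where chance alone would give about 1 in 20 groups. Fzd5 in irradiated VIP-treated cells was at 16.5 CPM in mouse 3 (28 UMIs) and at 13.2 to 13.4 CPM in the other mice. Lgr4 in non-irradiated VIP-treated cells was at 28.7 CPM in mouse 1 (38 UMIs) and at 30.5 to 30.8 CPM in the other mice. Neither gene was called in a comparison with these groups.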

How the results depend on the processing

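The rise of Ctnnb1 with irradiation in VIP-treated cells passed the threshold under all 12 alternatives (log2 fold change 0.54 to 0.76, highest adjusted p = 0.0250). The number of members past the threshold changed in 3 comparisons. For VIP in whole organoids it went from 0 to 1 with all genes of any count (Ctnnb1, edgeR's adjusted p = 0.0266) and to 1 without the second library of VIP-treated mouse 3, and it ranged from 0 to 4 when a mouse was left out, 4 being the value without mouse 3. For irradiation in untreated cells it went from 0 to 1 with a mean of at least 10 counts and ranged from 0 to 1 when a mouse was left out, Ctnnb1 passing without mouse 1. For the averaged irradiation effect it went from 2 to 1 with all genes of any count, with DESeq2 and without the replicate block, and was 1 when any 1 mouse was left out. In each of these Ctnnb1 passed and Wnt3 did not. The replicate block changed no other count of members.

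Of 1152 values of single genes under the alternatives, 1123 stayed on their side of the threshold, 21 lost their call, 8 gained one and 0 turned a called direction. Among the values without a call, 76 changed sign, each lying within 1 SE of 0 in at least 1 of the 2 fits compared. The number of all genes called changed more, from 614 in whole organoids to 99 without the replicate block and 1668 without mouse 3, from 445 to 176 without mouse 4 for irradiation in untreated cells, from 776 to 426 without mouse 4 under VIP, and from 1378 to 763 without mouse 4 in the average. For VIP it went from 6 to 1 without the replicate block and 17 with any count in the first sorted experiment, from 74 to 32 without mouse 4 and 184 with only the 2 groups in non-irradiated cells, and from 22 to 5 without mouse 3 and 110 with any count in irradiated cells. For the interactions it went from 0 to 34 with irradiation and from 15 to 57 with the compartment, both with any count, and to 0 without the replicate block for the latter. The cause of these changes was not tested. Depth limits Fzd7 and Znrf3 most, with under 20 UMIs in most sorted samples.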
